A study of Mus musculus with 4 samples.

Results

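The 10 genes described here encode the core proteins that make microRNAs and carry out silencing by them. They are Drosha, Dgcr8, Xpo5, Dicer1, Tarbp2, Ago1, Ago2, Tnrc6a, Tnrc6b and Tnrc6c. They were listed by name as parts of the pathway, and all 10 were found among the 23521 genes of the deposited table. The table gives RPKM, reads scaled to transcript length and to mapped reads, in 4 libraries of poly(A) RNA from Hepa1-6, a mouse hepatoma line. The Control group (n = 2 libraries) is labelled wild type and received lentivirus with a scrambled shRNA. The Chd1KD group (n = 2 libraries) received lentivirus with an shRNA against Chd1, an ATP-dependent chromatin remodeler. Both groups were kept under 4 μg/ml puromycin for 3 weeks before lysis in Trizol. The labels do not state how many shRNAs were used, or whether each library had its own transduction. The p-values therefore reflect only how far these libraries differ, and part of that may be technical.

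As background, a microRNA gene is transcribed into a long primary transcript with 1 or more hairpins. The nuclease Drosha and its RNA-binding partner Dgcr8 cut the hairpin out in the nucleus, exportin-5 (Xpo5) carries it to the cytoplasm, and Dicer1 with its partner Tarbp2 cuts it to a short duplex. A strand of the duplex is loaded into an Argonaute protein, which binds mRNAs through the seed of the microRNA, and TNRC6 proteins recruit deadenylases to the bound mRNA. In liver cells this machinery is known to be needed for the action of abundant microRNAs on lipid metabolism and growth. Each library was bulk RNA, so fewer cells that express a gene and less RNA per cell cannot be told apart.

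The sequences below are a hairpin within the Dgcr8 mRNA and mature microRNAs whose host transcripts were measured in these libraries. The Dgcr8 mRNA is itself known to carry hairpins that Drosha cuts, and the Mir1306 hairpin lies wholly inside a coding exon of Dgcr8, at chr16:18284239-18284317 on the minus strand (RefSeq, GRCm38.p6). Capitals mark its 2 mature arms.
Mir1306 hairpin: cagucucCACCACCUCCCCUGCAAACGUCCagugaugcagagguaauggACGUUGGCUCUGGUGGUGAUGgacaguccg

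Among the 15 tested transcripts of a chosen list of microRNA hosts, those with the smallest p-values were Mcm7, Mir22hg, Ctdsp2 and Ctdspl. Their mature microRNAs follow, with the seed (bases 2 to 8) in capitals. Those from Mcm7 include a pair with a shared seed, and Ctdsp2 and Ctdspl encode the same mature miR-26a-5p at separate loci.
mmu-miR-106b-5p (Mcm7, chr5:138165787-138165807, minus strand): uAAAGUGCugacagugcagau
mmu-miR-93-5p (Mcm7, chr5:138165574-138165596, minus strand): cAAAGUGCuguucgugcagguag
mmu-miR-25-3p (Mcm7, chr5:138165332-138165353, minus strand): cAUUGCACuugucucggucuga
mmu-miR-22-3p (Mir22hg, chr11:75463772-75463793, plus strand): aAGCUGCCaguugaagaacugu
mmu-miR-26a-5p (Ctdsp2, chr10:126995543-126995564, and Ctdspl, chr9:119031811-119031832, both plus strand): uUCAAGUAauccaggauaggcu
Mature microRNAs themselves were not measured. The table held 660 rows for separate microRNA loci, and all 660 were listed at 0 in the 4 libraries, which in these poly(A) libraries gives no level for a mature microRNA.

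The libraries had a summed RPKM of 459381 to 484490 and 10161 to 10209 genes at 1 RPKM or more. RPKM is already scaled to mapped reads, so this sum does not show library size. Read counts are not in the table and sequencing depth is unknown, so no counting interval is given. Across genes, the correlation of Control replicate 2 was r = 0.992 with the other Control library and r = 0.994 with Chd1KD replicate 2, so the groups did not separate fully. Of 7 hepatocyte and hepatoma markers, 5 were above 1 RPKM on average, among them Alb, Afp and Hnf4a, while Ttr was listed at 0 and Apoa1 stayed under 1 RPKM. The summed RPKM of the 7 was 1088 and 1151 in Control against 997.3 and 1023 in Chd1KD, most of it Krt18 (743.0 and 737.6 against 620.9 and 621.7). Afp went the other way (29.9 and 39.7 against 55.2 and 58.3), and Alb differed widely within Control (18.6 and 55.6 against 42.2 and 53.0). The part of these markers in the differences given here was not tested. All 16 matched markers of macrophages, endothelium, fibroblasts and lymphocytes were under 1 RPKM on average. Chd1, the target of the knockdown, measured 21.4 and 22.5 RPKM in Control against 10.4 and 11.3 RPKM in Chd1KD, 0.494 of Control (limma, adjusted p = 0.012). That call was lost without a filter on low values (limma, adjusted p = 0.25). Across the 10209 genes tested, those with a mean of at least 1 RPKM, 47 or 0.46% were called (limma, Benjamini-Hochberg adjusted p under 0.05). Calls numbered 140 without Control replicate 1, 236 without Control replicate 2 and 122 without Chd1KD replicate 2.

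The mRNA levels of the microRNA pathway genes differed little between Control and Chd1KD. All 10 passed the filter on low values and none was called (limma, 0 of 10 against 0.46% of all genes tested). Over all 4 libraries Ago2 had the largest difference, with a Chd1KD level at 0.831 of Control, and was the only member with an unadjusted p under 0.05, or 1 of 10 against 18.5% of all genes tested. Of the 10 log2 fold changes, 8 were negative and 2 were positive (negative for 56.5% of all genes tested), but Drosha and Ago1 turned positive under each of 3 other scalings of the libraries. The median of the members was -0.04 against -0.02 over all genes tested. The groups did not overlap for 6 of the 10 (5 lower and 1 higher in Chd1KD), a share near the 51.8% of all genes tested (30.5% lower, 21.3% higher). On the log2(RPKM + 1) scale the 95% intervals of all 10 members lay within a 1.5-fold change in either direction (0.58 in log2), from -0.47 at the lowest bound to 0.33 at the highest. These intervals are not adjusted for the number of genes. With 1 library left out, the log2 fold change of 9 of the 10 members, all but Xpo5, moved by over 1.5 times, up or down, in at least 1 fit. A value near 0 meets this relative measure easily, as did Drosha, which ran only from -0.0338 to 0.0253. The share over all genes tested was not computed.

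**Figure D1:**
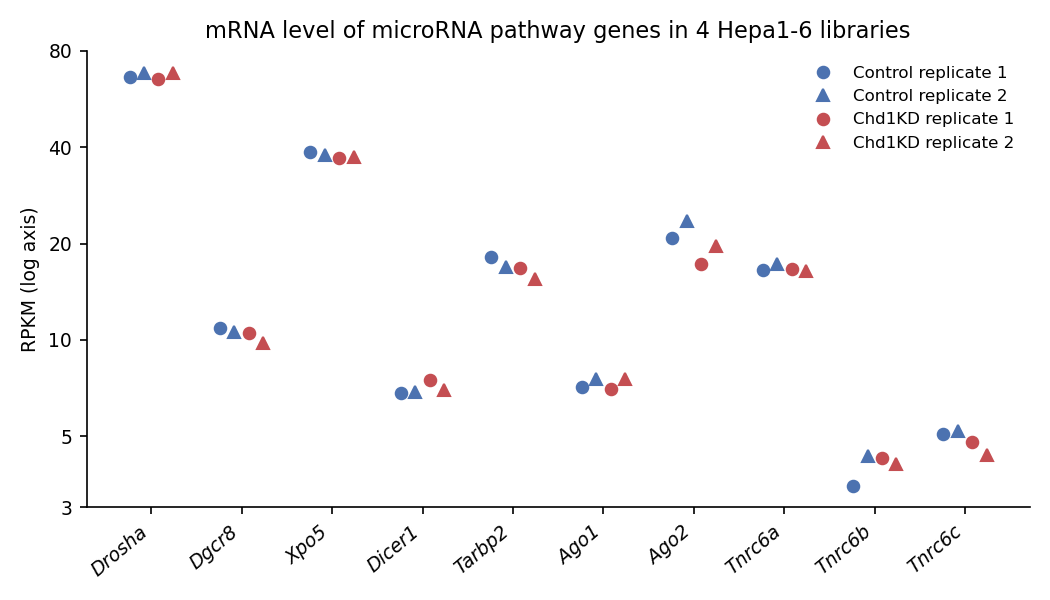
RPKM of the 10 microRNA pathway genes on a log axis, with 1 point per library, Control in blue and Chd1KD in red, circles for replicate 1 and triangles for replicate 2. Drosha stands highest at 65.5 to 68.3 RPKM and Tnrc6b lowest at 3.50 to 4.33 RPKM, and the Chd1KD mean of Ago2 lies at 0.831 of Control.

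The members differed far more from each other than between groups. By mean RPKM over the 4 libraries the order was Drosha (66.98), Xpo5 (37.7), Ago2 (20.3), Tarbp2 (16.8), Tnrc6a (16.7), Dgcr8 (10.4), Ago1 (7.32), Dicer1 (7.06), Tnrc6c (4.86) and Tnrc6b (4.05). Some neighbours in this order had overlapping ranges over the libraries. These were Ago2 with Tarbp2, Tarbp2 with Tnrc6a, and Ago1 with Dicer1. Drosha exceeded 88.7% of the genes tested and Tnrc6b exceeded 19.5%. The sum over the 10 genes was 193.7 and 198.1 RPKM in Control against 187.2 and 190.0 RPKM in Chd1KD.

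None of the genes of the nuclear steps was called. Drosha, the nuclease of the Microprocessor (chromosome 15, 12824804 to 12935291, mm10), measured 66.1 and 68.1 RPKM in Control against 65.5 and 68.3 RPKM in Chd1KD. Its groups overlapped, and its log2 fold change was -0.0042 with a 95% interval from -0.14 to 0.13 (limma, adjusted p = 0.98). Nearly all of the Drosha signal came from 1 of its 2 RefSeq transcripts, which held at least 99.5% of its RPKM in each library. Dgcr8, which binds the hairpin and carries the Mir1306 sequence printed above (chromosome 16, 18253948 to 18289251), measured 10.9 and 10.6 RPKM in Control against 10.5 and 9.80 RPKM in Chd1KD. Both Chd1KD values lay below both Control values, by a margin smaller than the difference between the Control libraries (log2 fold change -0.08, SE 0.07, limma, adjusted p = 0.59). Dgcr8 overlaps Trmt2a on the opposite strand over 825 bases, and the sources used here do not say whether reads were counted by strand, so reads there cannot be told apart. The Drosha level was 6.04 and 6.45 times that of Dgcr8 in Control and 6.24 and 6.96 times in Chd1KD. These ratios overlapped between the groups.

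Xpo5, the export receptor for the hairpin (chromosome 17, 46202811 to 46243598), measured 38.5 and 37.8 RPKM in Control against 36.9 and 37.3 RPKM in Chd1KD. The groups did not overlap, but the gap between them was smaller than the difference between the Control libraries (log2 fold change -0.04, SE 0.06, limma, adjusted p = 0.74). Xpo5 was the second most abundant member.

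In the cytoplasmic step, Dicer1, the nuclease that cuts the hairpin to a duplex (chromosome 12, 104687740 to 104751968), measured 6.84 and 6.88 RPKM in Control against 7.52 and 6.99 RPKM in Chd1KD. It was the only member whose Chd1KD values both lay above its Control values. The log2 fold change was 0.07 with an interval from -0.10 to 0.24 (limma, adjusted p = 0.64). Its partner Tarbp2 (chromosome 15, 102516077 to 102523676) measured 18.2 and 16.9 RPKM in Control against 16.8 and 15.5 RPKM in Chd1KD. Its groups were nearly touching, at 0.921 of Control (log2 fold change -0.11 with an SE of 0.07, limma, adjusted p = 0.44). Tarbp2 overlaps Map3k12 on the opposite strand over 928 bases. The Tarbp2 sum was made of 2 RefSeq transcripts. The minor one, NM_001253795, held 19.4% and 18.7% of the Tarbp2 RPKM in Control against 19.2% and 28.7% in Chd1KD. Only Chd1KD replicate 2 stood apart, so the shift was seen in 1 of 2 Chd1KD libraries. Taking the most abundant transcript of each gene moved the Tarbp2 log2 fold change to -0.20 (limma, adjusted p = 0.39).

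Ago2 showed the largest difference of the 10 over the 4 libraries, but not without Control replicate 2, where Tnrc6b lay farther from 0 (log2 fold change 0.21), nor without Chd1KD replicate 1, where Tnrc6c did (-0.19). Ago2 (chromosome 15, 73101625 to 73184947) encodes the Argonaute that can itself cut a fully paired target RNA. It measured 20.8 and 23.6 RPKM in Control against 17.2 and 19.7 RPKM in Chd1KD. Both Chd1KD libraries lay below both Control libraries, and the gap between the nearest pair was smaller than the difference within either group. In both groups replicate 2 was the higher library. Mean Ago2 was 22.2 ± 1.95 RPKM in Control against 18.5 ± 1.71 RPKM in Chd1KD (SD, n = 2 each), with a log2 fold change of -0.26 (SE 0.09, limma, unadjusted p = 0.025, adjusted p = 0.21). The log2 fold change was -0.17 without Control replicate 2 and -0.16 without Chd1KD replicate 1. It was -0.34 without Control replicate 1 and -0.35 without Chd1KD replicate 2. With the replicate number as a block, it stayed at -0.26 with an SE of 0.05 (limma, adjusted p = 0.056). The replicate numbers carry no stated pairing. Ago2 overlaps the long noncoding gene Gm31725 over 7013 bases. Tnrc6a overlaps Gm39084 over 22643 bases and Chd1 overlaps 5830433I10Rik over 411 bases, both also long noncoding genes. None of these overlaps was analysed here.

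Ago1 (chromosome 4, 126435012 to 126468707), which silences without cutting, measured 7.14 and 7.54 RPKM in Control against 7.06 and 7.54 RPKM in Chd1KD. Its groups overlapped almost entirely (log2 fold change -0.01, 95% interval -0.18 to 0.17, limma, adjusted p = 0.97). The other 2 Argonautes were weakly expressed. Ago3 measured 1.72 and 2.10 RPKM in Control against 2.04 and 2.03 RPKM in Chd1KD (log2 fold change 0.06, limma, adjusted p = 0.78, negative at -0.03 without Control replicate 1). Ago4 stayed between 0.058 and 0.163 RPKM and was not tested.

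Because RPKM is per length, the 4 Argonautes can be set beside each other within a library. Ago2 made up 69.9% and 70.9% of the summed Argonaute RPKM in Control against 65.1% and 67.0% in Chd1KD. The share of Ago1 was 23.96% and 22.7% in Control and 26.6% and 25.7% in Chd1KD. The groups did not overlap for either share, and the RPKM of 51.8% of all genes tested did not overlap. The shares are parts of 1 sum, so they are not separate observations. The Ago3 share did not overlap either, at 5.77% and 6.30% in Control against 7.68% and 6.93% in Chd1KD, while that of Ago4 overlapped. The summed Argonaute RPKM was 29.8 and 33.3 in Control and 26.5 and 29.3 in Chd1KD. These shares were not tested, because with 2 libraries per group the smallest two-sided p of an exact permutation is 0.33.

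**Figure D2:**
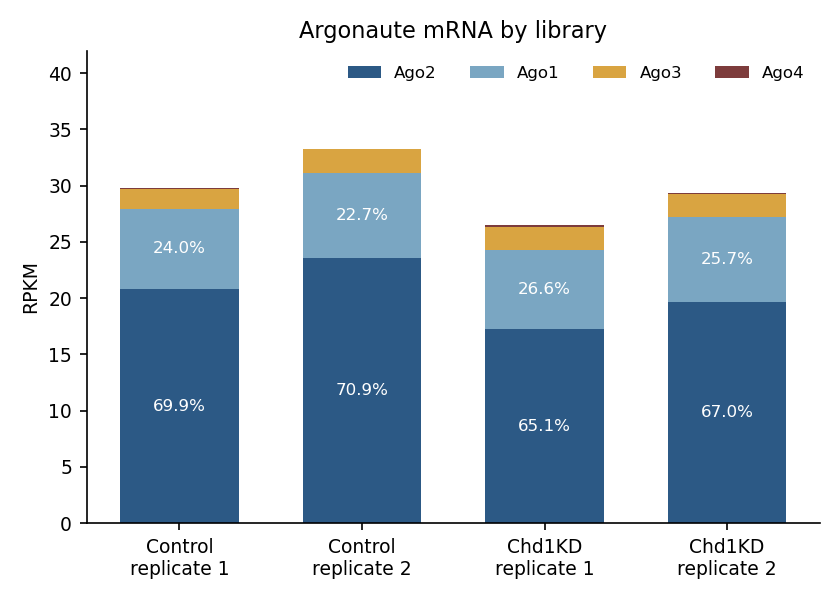
Stacked bars of the RPKM of the 4 Argonaute genes in each library, with the percent of the Argonaute sum printed for Ago2 and Ago1. Ago2 is the largest part in each library, at 69.9% and 70.9% in Control and 65.1% and 67.0% in Chd1KD.

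The TNRC6 proteins, the scaffold that links Argonaute to the deadenylases, showed no called difference. Tnrc6a (chromosome 7, 123031101 to 123195296) was the most abundant of the 3, with 16.6 and 17.3 RPKM in Control against 16.6 and 16.4 RPKM in Chd1KD (log2 fold change -0.03, limma, adjusted p = 0.82). Its groups overlapped. Tnrc6b (chromosome 15, 80711313 to 80941086) measured 3.50 and 4.33 RPKM in Control against 4.29 and 4.11 RPKM in Chd1KD. The Chd1KD values lay between those of Control, and the log2 fold change of 0.09 turned to -0.04 without Control replicate 1 (limma, adjusted p = 0.69 over the 4 libraries). Tnrc6c (chromosome 11, 117653703 to 117763439) measured 5.09 and 5.19 RPKM in Control against 4.82 and 4.37 RPKM in Chd1KD. Both Chd1KD values were the lower ones (0.894 of Control, log2 fold change -0.13 with an SE of 0.08, limma, adjusted p = 0.41). Tnrc6a held 65.9% and 64.5% of the TNRC6 sum in Control and 64.6% and 66.0% in Chd1KD, overlapping ranges. The share of Tnrc6c was 20.2% and 19.4% in Control and 18.7% and 17.5% in Chd1KD. That of Tnrc6b was 13.9% and 16.2% in Control and 16.6% and 16.5% in Chd1KD. The groups did not overlap for either share, and the RPKM of 51.8% of all genes tested did not overlap. These shares are parts of 1 sum and were not tested.

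**Figure D3:**
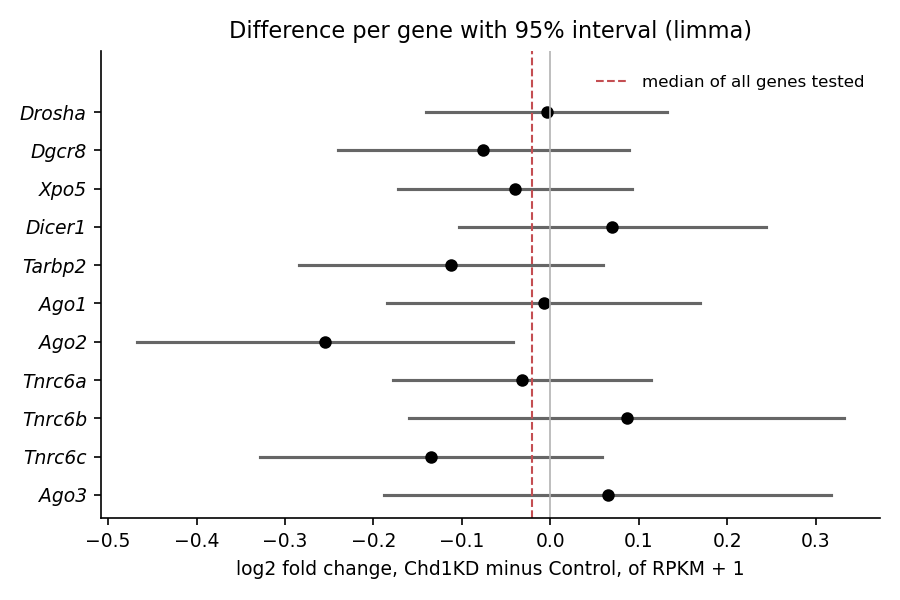
Log2 fold change of RPKM + 1, Chd1KD minus Control, for the 10 members and Ago3, with the 95% interval from limma as a bar and the median of all genes tested (-0.02) as a dashed line. The interval of Ago2 lies below 0 (-0.47 to -0.04, not adjusted over genes), and those of the other genes drawn span 0.

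The 10 genes lie on 7 chromosomes, with 4 on chromosome 15 (Drosha, Ago2, Tnrc6b and Tarbp2). Promoter windows from 250 bases before to 50 bases after the start were found for 9 of the 10, all but Ago2 (11 windows, RefSeq, GRCm38.p6). Their GC content ran from 44.7% to 77.3% with a median of 71.3%, against a median of 52.7% over all 32851 windows of the same length, which include genes not expressed here. Their ratio of observed to expected CpG ran from 0.511 to 1.19 with a median of 0.905, against 0.384 over all windows.

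Over 4 libraries the genes with the pattern nearest to that of Ago2 were Fam20c, Dhcr7 and Camk2d, by the distance between log2(RPKM + 1) values centred on each gene's mean. Their distances were 0.025, 0.026 and 0.028. With 10209 genes and 4 points such close matches are a description only.

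The wider pathway was read from 8 lists with 110 entries, of which 107 matched a gene and 95 were tested. None of the 95 was called (limma), and 15 had an unadjusted p under 0.05 (3 higher, 12 lower), or 15.8% against 18.5% of all genes tested (7.24% higher, 11.3% lower). The groups did not overlap for 51 of the 95, or 53.7% against 51.8%. The median log2 fold change was -0.03 against -0.02 over all genes tested.

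Among genes that act after Argonaute, Cnot7 had the smallest p-value over the 4 libraries. Cnot7 encodes a catalytic deadenylase subunit of CCR4-NOT, the complex that TNRC6 proteins recruit to shorten poly(A) tails. It measured 23.97 and 22.7 RPKM in Control against 30.8 and 31.8 RPKM in Chd1KD, with both Chd1KD values well above Control. The ratio was 1.34 and the log2 fold change 0.41 (SE 0.06, limma, unadjusted p = 0.00032, adjusted p = 0.054), just outside the threshold. It was called under 7 of 14 alternatives, with adjusted p from 0.028 to 0.25, and with a log2 fold change of 0.37 to 0.45 when 1 library was left out. Cnot7 overlaps Vps37a on the opposite strand over 4106 bases, and Vps37a measured 9.58 and 9.31 RPKM in Control against 9.95 and 10.7 RPKM in Chd1KD. Its paralog Cnot8, named after its values were seen, measured 27.6 and 26.7 RPKM in Control against 27.2 and 27.9 RPKM in Chd1KD (limma, adjusted p = 0.89). The difference between Cnot7 and Cnot8 was not tested. Of the 17 deadenylation genes, 10 had positive fold changes, against 4443 of the 10209 genes tested. An unadjusted p under 0.05 (limma) was found for 1, or 5.88% against 18.5% of all genes tested. The median was 0.04 against -0.02.

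The 13 tested decapping and decay genes held 3 with an unadjusted p under 0.05, or 23.1% against 18.5% of all genes tested. No gene of the list was called (limma). Dcp2, the enzyme that removes the mRNA cap, measured 9.13 and 10.3 RPKM in Control against 7.08 and 8.26 RPKM in Chd1KD, a ratio of 0.789 (limma, adjusted p = 0.17). Gigyf1, a repressor of translation, had a ratio of 0.823 (limma, adjusted p = 0.12). Lsm1, part of the ring that binds deadenylated mRNA, had a ratio of 1.18 (limma, adjusted p = 0.19), and Patl1 had one of 0.902 (log2 fold change -0.19 to -0.09 with 1 library left out). The list median was -0.05 against -0.02 over all genes tested. The 12 tested RNA-binding proteins found with Argonaute complexes had a median of 0.02. Of these, 0 had an unadjusted p under 0.05 (limma), against 18.5% of all genes tested. Limd1, Fmr1 and Pum2 had ratios of 0.926, 1.09 and 1.06.

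Of the 17 cofactors of microRNA biogenesis, 14 had negative fold changes, against 56.5% of all genes tested, and none was called (limma). An unadjusted p under 0.05 was found for 5, or 29.4% against 18.5% of all genes tested (limma). All 5 were lower in Chd1KD, and the share of lower ones over all genes tested was 11.3%. The list median was -0.10 against -0.02. The 4 with the smallest p-values are named here. Adar, which edits double-stranded RNA, measured 3.02 and 3.44 RPKM in Control against 2.36 and 2.42 RPKM in Chd1KD, a ratio of 0.74 (limma, adjusted p = 0.16). Hnrnpa2b1, Srsf3 and Sfpq, abundant nuclear RNA-binding proteins, had ratios of 0.877, 0.906 and 0.908.

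The 11 tested genes of microRNA tailing and turnover had a median of -0.01. Of these, 0 had an unadjusted p under 0.05 (limma), against 18.5% of all genes tested. Xrn2, Dis3l2, Parn and Zswim8 had ratios of 0.927, 0.827, 0.895 and 1.05. With 1 library left out, the log2 fold change of Dis3l2 ran from -0.31 to -0.07 and that of Parn from -0.24 to -0.06. Lin28a, which blocks processing of let-7 precursors, was listed at 0 in all libraries, and Lin28b stayed at or under 0.033 RPKM. Of the 9 chaperones that help to load Argonaute, 1 had an unadjusted p under 0.05 (limma), or 11.1% against 18.5% of all genes tested. Hsp90ab1, a constitutive HSP90, measured 1604 and 1529 RPKM in Control against 1341 and 1385 RPKM in Chd1KD, a ratio of 0.87 (limma, adjusted p = 0.18). Hsp90aa1, Fkbp4 and Hspa8 had ratios of 1.05, 0.965 and 0.963.

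Of 25 microRNA host transcripts, 22 were matched and 15 tested. None was called (limma), and 5 had an unadjusted p under 0.05 (1 higher, 4 lower), or 33.3% against 18.5% of all genes tested (7.24% higher, 11.3% lower). The median was -0.09 against -0.02 over all genes tested. Mcm7, a replication helicase subunit whose introns hold the miR-106b, miR-93 and miR-25 sequences printed above, measured 178.6 and 166.6 RPKM in Control against 141.4 and 142.2 RPKM in Chd1KD. Its ratio was 0.822 (limma, adjusted p = 0.10). It was called without Control replicate 2 (log2 fold change -0.33, limma, adjusted p = 0.033). Mir22hg, the host of miR-22, measured 6.51 and 5.70 RPKM in Control against 7.54 and 7.45 RPKM in Chd1KD, a ratio of 1.23 (limma, adjusted p = 0.18). Ctdsp2 and Ctdspl, phosphatase genes that each hold a copy of miR-26a, had ratios of 0.878 and 0.799 (limma, adjusted p = 0.27 for both). The log2 fold change of Ctdsp2, -0.18 over the 4 libraries, was -0.09 without Control replicate 2 and -0.27 without Control replicate 1. These values are levels of the host transcripts, not of the microRNAs.

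**Figure D4:**
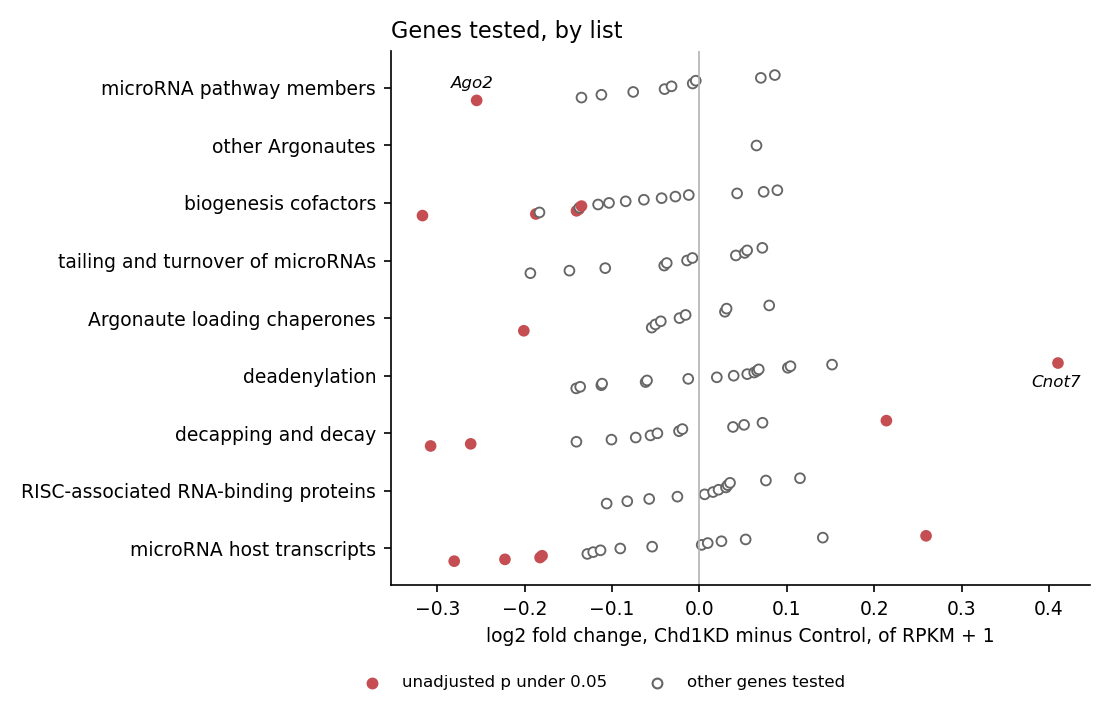
Log2 fold change of RPKM + 1, Chd1KD minus Control, with 1 point per tested gene in each list, filled red where the unadjusted p was under 0.05. Cnot7 lies farthest to the right at 0.41, and Ago2 lies at -0.26 among the members.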

How the data were processed

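Per the file headers, the authors deposited RPKM for 30582 rows, 1 per RefSeq transcript. TopHat 1.4.1, Cufflinks 1.3.0 and mm10 appear in the submitters' processing notes. The sources used here do not give the annotation release, strand setting, filters or scaling. The 4 single-library tables were identical to the columns of the series table. Names came from the NCBI table of GRCm38.p6, on which mm10 is built (30003 rows), or from GENCODE M21 (180 rows). The other 399 rows, 0.304% of summed RPKM, kept their accession. RPKM was summed per gene.

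Genes whose RPKM averaged 1 or more were tested in R 4.3.3 with limma 3.58.1, using log2(RPKM + 1), a mean-variance trend and no covariate. Such log2 fold changes understate changes of low genes. Ratios divide the group means of RPKM, with no pseudocount. RPKM are not counts, so no count model was used. Whole-read steps were sought in 1179 low transcripts, but the commonest ratio between libraries held at most 6.62% of them.

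The members and lists were chosen with earlier results of these data known. Named wider genes were up to 4 per list by p-value, plus Ago3 and Ago4, and 1 gene under this rule is not reported here. Vps37a, an overlapping partner, was added after values were seen. Overlaps are of whole gene spans in the NCBI table. The fit was tested on simulated data. Alternatives covered the pseudocount, filter, scaling, variance model, transcript choice, replicate block and each library left out. With a library left out, the lone library of its group was assumed to vary like the other group. Figures were drawn with matplotlib 3.10.9.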

Additional observations from a re-analysis of the deposited data

How the results depend on the processing

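None of the 10 members was called under any of the 14 alternatives. The lowest adjusted p of a member was 0.056, for Ago2 with the replicate number as a block (limma), and its range over the alternatives was 0.056 to 0.70. The log2 fold change of Drosha turned to 0.0265 with equal summed RPKM, 0.0174 with median-of-ratios scaling and 0.0225 with quantile normalization, and that of Ago1 to 0.0197, 0.0116 and 0.0144. With 1 library left out, Drosha lay between -0.0338 and 0.0253, Ago1 between -0.0499 and 0.0345, Tnrc6b between -0.0361 and 0.2087, Ago3 between -0.0289 and 0.1583, Zswim8 between -0.0127 and 0.1567, and Hsp90aa1 between -0.0283 and 0.1881. Hspa8 turned to 0.0048 with quantile normalization. Of the 29 other genes refitted, 12 moved by over 1.5 times with 1 library left out. Most of these 29 were named for small p-values, so they are not a background for the members. The cause of these changes was not tested.

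Calls over all genes numbered 47. They were 95 with equal summed RPKM, 71 with a minimum mean of 5 RPKM, 12 with the most abundant transcript, 6 with no variance trend, 92 with a robust trend, and 49 to 236 with 1 library left out. With no filter on low values limma called 0, with 2153 genes at an unadjusted p below 0.05. Calls in the wider lists numbered 0, and 1 (Cnot7) with equal summed RPKM, a minimum mean of 5 RPKM, median-of-ratios scaling or a robust trend, and 0 to 2 with 1 library left out. Tnrc6b and Tnrc6c were not tested at a minimum mean of 5 RPKM. The Tnrc6a share was 68.1% in Control and 68.2% in Chd1KD with the most abundant transcript.

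The replicate numbers carried no stated pairing, and deviations of same-numbered libraries correlated at r = 0.22 over 10209 genes. With the replicate block 325 genes were called, 2 of them in the wider lists (Cnot7 and Mcm7). Depth is unknown, and 2 libraries a group limit the precision, with the widest 95% interval of a member at Tnrc6b (-0.16 to 0.33).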
